A study of Mus musculus with 10 samples.

Results

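Genes whose symbol is the stem Zfp followed by a number name a large set of zinc finger proteins in the mouse. Of the 12803 genes in the deposited table, 332 had such a symbol, and 329 are described here. Zfp36, Zfp36l1 and Zfp36l2 were left out, since they encode RNA-binding proteins of another finger type. The rule for members used the symbol alone and not the levels, but it was set with earlier results of these data known. Of the 329, 328 were found by symbol in the annotation, 325 of them with a protein, and 3 as pseudogenes (Zfp783, Zfp862-ps and Zfp939). Zfp267 was named in the table only.

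A zinc finger of the C2H2 type is a short fold in which a pair of cysteines and a pair of histidines hold a zinc ion, and a row of such fingers reads a stretch of DNA bases. Many of these proteins carry a KRAB box, a domain that binds the corepressor TRIM28, which brings the histone methyltransferase SETDB1 and heterochromatin proteins to the bound site. KRAB zinc finger proteins are known above all as repressors of retroelements, and their genes lie in clusters that grew by duplication. Members without a KRAB box have mixed roles in transcription, RNA handling, mitosis and development.

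RNA was sequenced from muscle stem cells, the resident progenitors of skeletal muscle, of young male C57BL/6 mice. The cells were sorted from muscle by FACS as CD45-, CD31-, Sca1- and VCAM+, and each library came from a single animal. In the Tubastatin A group (n = 4) the cells spent 24 h ex vivo in 40 µM Tubastatin A, which was dissolved in DMSO and blocks HDAC6, an enzyme that removes acetyl groups from tubulin. In the vehicle group (n = 3) they spent 24 h ex vivo with the same volume of DMSO. Both cultures were kept in Ham's F-10 medium with 10% horse serum on coated plastic. In the fresh group (n = 3) the cells were frozen after sorting, at 0 h. No genetic change is named in the labels of any group.

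The table gave levels in RPKM (reads relative to exon length and to a scaled library size). Reads recovered from these values summed to between 37026385 and 54567007 per library, and the median member had between 180.5 and 759.5 reads per library. The summed RPKM of all genes was 235147 to 257127 in Tubastatin A, 254938 to 278042 in vehicle and 392681 to 436266 in fresh libraries. Scaling the libraries to this sum moves the median log2 change of all genes by 0.07 for Tubastatin A against vehicle, 0.36 for vehicle against fresh and 0.46 for Tubastatin A against fresh, and directions that turn with it are named. All 10 muscle stem cell markers listed were measured, and their sum was 993 ± 46.7 RPKM with Tubastatin A, 1982 ± 166 RPKM with vehicle and 3824 ± 497 RPKM in fresh cells (SD). Myod1 alone had means of 539, 1186 and 757 RPKM in the same order. With Tubastatin A against vehicle, 7 of the 10 were called lower and 1, Calcr, higher. For vehicle against fresh, 8 were called lower and none higher. Fresh replicate 1 stood apart from the other fresh libraries: its members had a median of 2.03 RPKM, against 1.33 and 1.43 RPKM in fresh replicates 2 and 3. Tubastatin A replicate 2 stood apart in myofibre markers, whose sum was 382 RPKM there, against 5.00 to 6.01 RPKM in the other Tubastatin A libraries, with Acta1 at 311 RPKM. The sum was 16.8 to 24.7 RPKM in vehicle and 48.2 to 56.4 RPKM in fresh libraries. In these bulk libraries, fewer cells that express a gene and less RNA per cell cannot be told apart. A gene is called changed at an adjusted p (Benjamini-Hochberg over all 12803 genes) under 0.05 from limma on log2(RPKM + 1). Log2 changes are on that scale, which understates the change of genes with low levels.

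The members were genes of modest level, and most of them encoded a KRAB protein. A KRAB box was found in 193 members and none in 132. A SCAN box, a domain through which these proteins pair, was found in 13. The finger pattern was found in all but 7 of the 325 proteins, with a median of 11 fingers and a maximum of 36. KRAB proteins had a median of 12 fingers and the others a median of 7. Chromosome 7 held 83 members, chromosome 17 held 44, chromosome 13 held 27 and chromosome 8 held 22. In all, 122 members stood in runs of at least 3 neighbouring Zfp genes with no other protein-coding gene between them, and 112 of these 122 had a KRAB box. The mean level over the 3 groups had a median of 2.04 RPKM over members, against 5.96 RPKM over all genes. It was at least 1 RPKM in 244 members and at least 10 RPKM in 33.

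The summed and median levels of KRAB genes were highest with Tubastatin A. Together the 193 KRAB genes summed to 606, 611, 594 and 625 RPKM in the Tubastatin A libraries. They summed to 458, 450 and 444 RPKM in the vehicle libraries, and to 541, 480 and 534 RPKM in the fresh libraries. The 3 groups did not overlap, with Tubastatin A highest and vehicle lowest. The median KRAB gene gave another order, with 1.92 to 2.08 RPKM in Tubastatin A, 1.31 to 1.43 RPKM in vehicle and 0.736 to 1.19 RPKM in fresh libraries. As a share of all RPKM, KRAB genes took 0.247 ± 0.0042% in Tubastatin A, 0.168 ± 0.0104% in vehicle and 0.128 ± 0.0153% in fresh libraries (SD), so the order of vehicle and fresh libraries in the summed level turned with the scaling. Between 139 and 144 KRAB genes reached 1 RPKM in a Tubastatin A library, against 120 to 126 in a vehicle library and 86 to 109 in a fresh library. The 132 genes without a KRAB box summed to 807 ± 4.20 RPKM with Tubastatin A, 881 ± 16.1 RPKM with vehicle and 930 ± 55.7 RPKM in fresh cells (SD). There the Tubastatin A libraries lay below all vehicle libraries, and the vehicle and fresh libraries overlapped. As a share of all RPKM, these genes took 0.315 to 0.341% in Tubastatin A, 0.315 to 0.353% in vehicle and 0.199 to 0.246% in fresh libraries. On that scale the Tubastatin A and vehicle libraries overlapped and the fresh libraries lay below both, so this order also turned with the scaling.

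**Figure D1:**
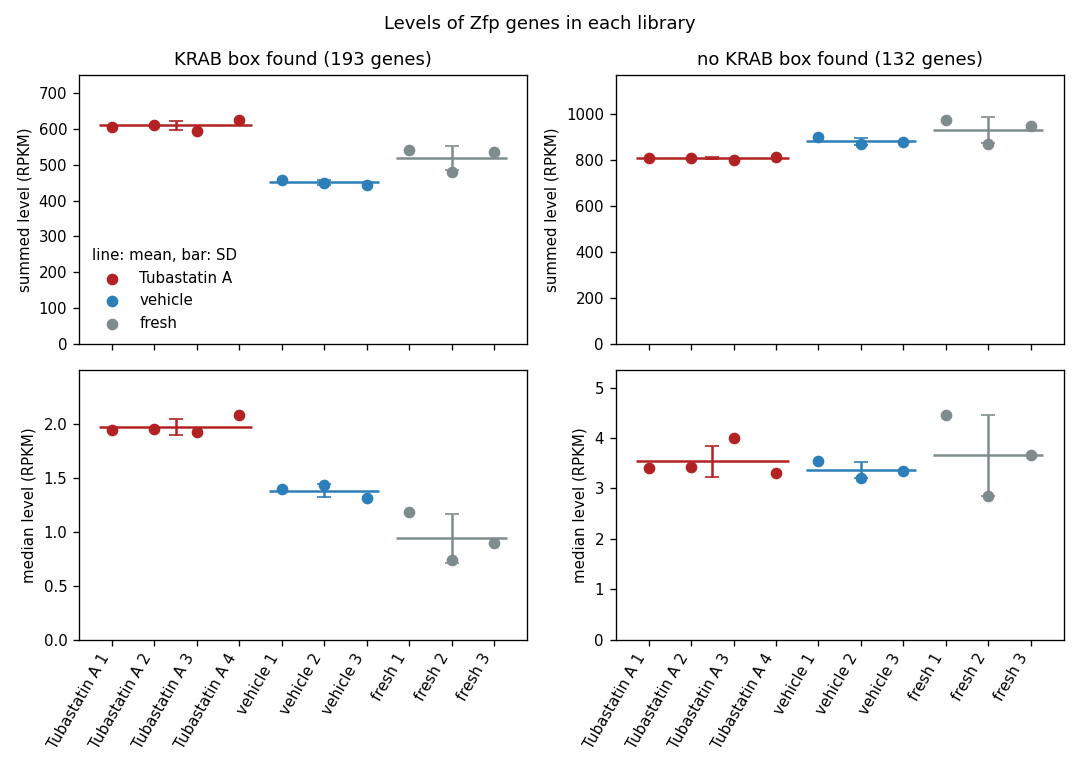
Summed (top) and median (bottom) level in RPKM of the Zfp genes with a KRAB box (left) and without one (right) in each of the 10 libraries. Points are libraries, lines are group means and bars are SD. The KRAB sum is 594 to 625 RPKM in the 4 Tubastatin A libraries and 444 to 458 RPKM in the 3 vehicle libraries.

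The mean level was highest in the Tubastatin A group for 161 of the 329 members, in the vehicle group for 87 and in the fresh group for 81. Over all genes it was highest in Tubastatin A for 28.3%, in vehicle for 32.8% and in fresh cells for 38.9%. Of the 193 KRAB genes, 120 (62.2%) were highest with Tubastatin A, 46 with vehicle and 27 in fresh cells. Of the 132 genes without a KRAB box, 40, 41 and 51 were highest in the same order of groups.

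Tubastatin A against vehicle asks what the inhibitor changed in cells cultured for the same time. More members rose than fell: there were 112 rises and 47 falls, while 170 members did not pass the test. Of all genes, 59.3% were called in this comparison, 29.6% higher and 29.7% lower. The median log2 change was 0.16 over members, against 0.02 over all genes. The libraries of both groups did not overlap for 142 members that were higher and 60 that were lower, beside 68.6% of all genes with no overlap. Called changes of at least 1 log2 unit were seen in 26 members, beside 2402 of all genes (18.8%). Without Tubastatin A replicate 2, 99 members rose and 43 fell, with no count of all genes set beside these.

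The member with the largest change on the scale of log2(RPKM + 1) was Zfp367, whose protein has 2 fingers and was first described in human erythroid cells. It lies at chr13:64133018-64153202 (mm10, as all gene positions here) on the minus strand, with Gm47513 on the other strand. It had 2.91, 2.55, 2.54 and 2.82 RPKM with Tubastatin A, against 36.5, 34.0 and 30.4 RPKM with vehicle. Fresh cells had 8.05, 7.08 and 11.7 RPKM. All 3 groups stood apart, with vehicle highest and Tubastatin A lowest. The log2 change was -3.22 (SE 0.15, adjusted p = 9.8e-09) for Tubastatin A against vehicle, 1.82 (SE 0.16, adjusted p = 8.8e-07) for vehicle against fresh, and -1.40 (SE 0.15, adjusted p = 5.9e-06) for Tubastatin A against fresh. Its first RefSeq promoter, chr13:64153150-64153449 (minus strand, GRCm38.p6), is shown because it holds, in capitals, a match to the letters TTCGCGC on the opposite strand, which E2F factors bind, and 3 matches to CCAAT on either strand.
Zfp367: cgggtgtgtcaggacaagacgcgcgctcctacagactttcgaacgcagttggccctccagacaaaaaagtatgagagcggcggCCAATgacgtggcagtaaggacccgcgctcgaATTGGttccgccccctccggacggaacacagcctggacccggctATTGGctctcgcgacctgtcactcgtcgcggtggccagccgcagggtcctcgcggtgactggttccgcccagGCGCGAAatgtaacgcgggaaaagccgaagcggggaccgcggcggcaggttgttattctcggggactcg
The E2F match begins 19 bases before the start site, and the CCAAT matches begin 167, 135 and 91 bases before it. A second RefSeq promoter of the gene, chr13:64152324-64152623, holds GCGCCAA and GCGCGAA 90 and 42 bases before its start.

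Zfp655 moved the other way. Its human counterpart is known as a Vav-interacting protein with a role in the cell cycle, and its 6 fingers follow a KRAB box. It had 31.9, 32.2, 27.1 and 32.5 RPKM with Tubastatin A, against 8.31, 8.38 and 7.55 RPKM with vehicle. In fresh cells it had 36.1, 52.1 and 68.2 RPKM. The groups did not overlap, with vehicle lowest and fresh cells highest. The log2 change was 1.81 (SE 0.17, adjusted p = 3.6e-06) for Tubastatin A against vehicle and -2.50 (SE 0.19, adjusted p = 2.4e-07) for vehicle against fresh. Tubastatin A was lower than fresh by a log2 change of -0.69 (SE 0.17, adjusted p = 0.0040), which became 0.01 with libraries scaled to the summed RPKM. Zfp655 spans chr5:145231715-145247302 on the plus strand. Its RefSeq promoter, chr5:145231492-145231791 (GRCm38.p6), is shown with the letters TGACGTAA, which CREB factors bind, and a GC box (GGGCGG, here on the opposite strand) in capitals.
Zfp655: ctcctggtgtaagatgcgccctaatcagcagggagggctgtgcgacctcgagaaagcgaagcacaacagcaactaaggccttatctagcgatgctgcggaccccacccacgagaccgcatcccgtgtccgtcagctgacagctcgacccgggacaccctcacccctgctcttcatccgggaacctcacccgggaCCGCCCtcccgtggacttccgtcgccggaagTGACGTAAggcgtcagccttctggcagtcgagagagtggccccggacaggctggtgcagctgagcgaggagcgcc
The CREB match begins 25 bases and the GC box 56 bases before the start site.

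Zfp941, a KRAB gene with 10 fingers, was low without the inhibitor. It had 1.30, 1.45, 1.26 and 1.66 RPKM with Tubastatin A, against 0.155, 0.0445 and 0.0710 RPKM with vehicle. Fresh cells had 0.102, 0.00718 and 0.0205 RPKM. These levels came from 270 to 392 reads per library with Tubastatin A, against 9 to 35 reads with vehicle and 1 to 19 reads in fresh cells. The log2 change was 1.15 (SE 0.08, adjusted p = 2.6e-07) against vehicle and 1.21 (SE 0.08, adjusted p = 1.1e-07) against fresh cells. Vehicle against fresh gave 0.06 (SE 0.09, adjusted p = 0.53). It spans chr7:140807449-140822178 on the minus strand and overlaps Gm45785 on the same strand, so reads of that gene may be among its own. Its RefSeq promoter, chr7:140822129-140822428 (minus strand, GRCm38.p6), is shown because it holds 4 CCAAT matches on either strand, in capitals, and GGGCGG on neither strand.
Zfp941: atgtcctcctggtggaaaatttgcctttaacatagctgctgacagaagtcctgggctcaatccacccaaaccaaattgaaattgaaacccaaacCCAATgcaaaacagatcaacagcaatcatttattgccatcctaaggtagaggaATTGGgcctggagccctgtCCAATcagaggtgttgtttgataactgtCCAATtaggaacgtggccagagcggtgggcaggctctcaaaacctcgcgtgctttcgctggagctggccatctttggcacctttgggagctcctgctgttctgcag
The CCAAT matches begin 156, 103, 84 and 56 bases before the start site.

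Of the 10 members named for the largest rises under Tubastatin A, all but Zfp516 were KRAB genes. Zfp612 (16 fingers) had 5.87, 5.83, 6.70 and 5.89 RPKM with Tubastatin A, against 1.18, 1.34 and 1.63 RPKM with vehicle, and 2.41 ± 0.462 RPKM (SD) in fresh cells. Zfp52 (14 fingers) had 11.0, 8.45, 9.71 and 10.1 RPKM, against 2.77, 3.19 and 2.36 RPKM, and 1.82 ± 0.772 RPKM in fresh cells. For both, the Tubastatin A libraries lay above all others, with log2 changes against vehicle of 1.57 and 1.52. Zfp954 had 14.9, 15.6, 14.4 and 16.9 RPKM with Tubastatin A and 5.84, 6.01 and 4.58 RPKM with vehicle, while fresh cells had 30.8, 43.9 and 41.1 RPKM, the highest of the 3 groups. Zfp945, Zfp758 and Zfp790 rose by log2 changes of 1.12, 1.11 and 1.11. Zfp931 rose by 1.68, but 39.8% of its 31-base words also occur in transcripts of other genes, so its reads may be shared. Zfp516, which has no KRAB box and is known as an activator of the brown fat gene Ucp1, rose by 1.17 to 5.21 ± 0.916 RPKM with Tubastatin A, against 1.74 ± 0.129 RPKM with vehicle (SD).

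Of the 10 members named for the largest falls with Tubastatin A, 7 had no KRAB box. Zfp428, a protein with 1 finger pattern, had 2.32, 3.28, 3.95 and 4.24 RPKM with Tubastatin A, against 13.6, 17.3 and 20.3 RPKM with vehicle, and 8.98 ± 0.811 RPKM in fresh cells. Zfp706, a small protein known to restrain Klf4 in mouse embryonic stem cells and the member with the highest level, had 32.1, 38.3, 33.3 and 40.2 RPKM, against 79.6, 82.9 and 74.1 RPKM, and 66.7 ± 10.3 RPKM in fresh cells. In both, no Tubastatin A library reached the level of any vehicle or fresh library. Zfp422 had 17.2 to 20.7 RPKM with Tubastatin A, 40.1 to 43.3 RPKM with vehicle and 21.4 to 22.9 RPKM in fresh cells. Zfp219, a partner of Sox9 in cartilage, had 3.89 ± 0.567, 11.9 ± 0.306 and 6.32 ± 1.14 RPKM in the same order. Zfp296 and Zfp239 fell by 1.30 and 1.25 on the log2 scale. The KRAB genes among the 10 lowest were Zfp568, Zfp764 and Zfp213, which fell by 1.21, 1.20 and 1.13. Zfp219 and Zfp296 overlap genes of the opposite strand, and 47.4% of the words of Zfp764 occur elsewhere. Use of strand in counting is not stated, so these values may hold reads of neighbours.

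**Figure D2:**
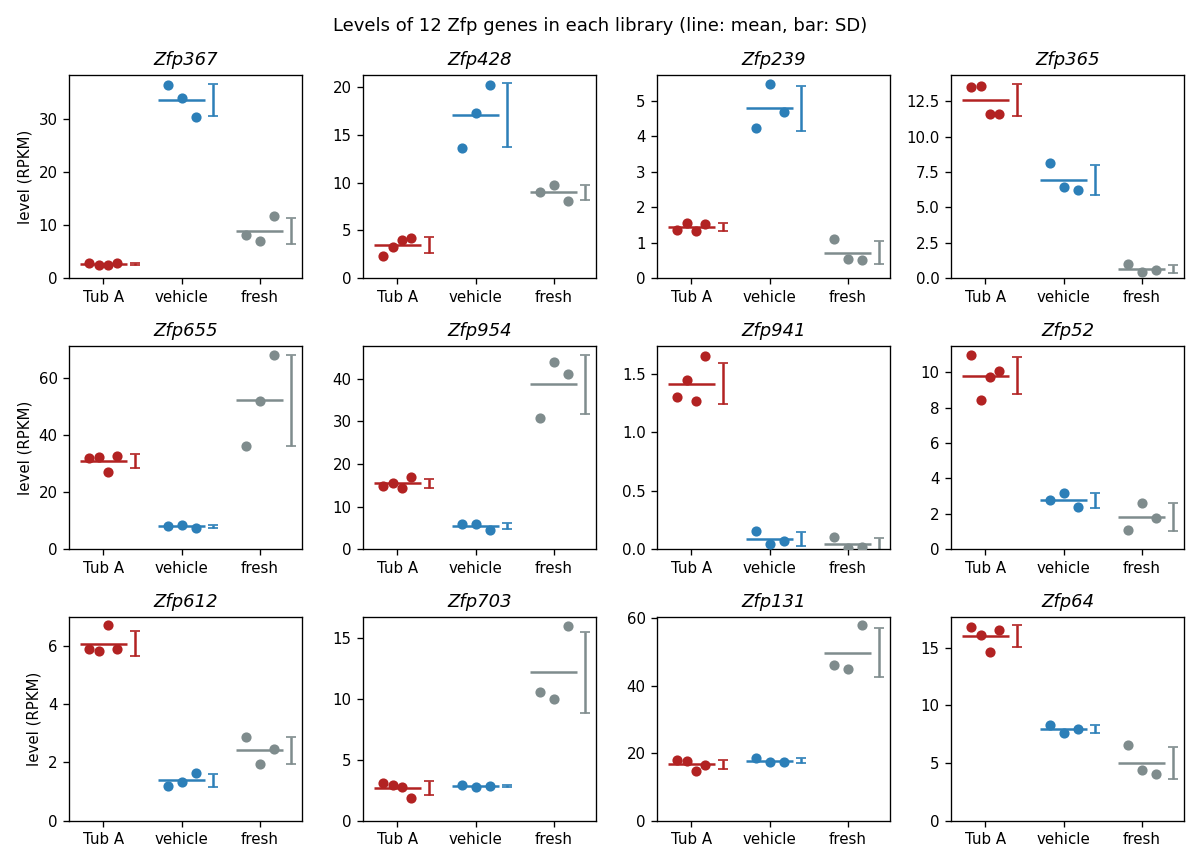
Level in RPKM of 12 Zfp genes in each library, on linear axes that start at 0. Points are libraries, lines are group means and bars are SD, with Tubastatin A (n = 4) left, vehicle (n = 3) in the middle and fresh cells (n = 3) right. Zfp367, Zfp428 and Zfp239 are highest with vehicle, Zfp655 and Zfp954 lowest with vehicle, Zfp941, Zfp52, Zfp612 and Zfp64 highest with Tubastatin A, and Zfp703 and Zfp131 highest in fresh cells.

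Vehicle against fresh sets cells after 24 h ex vivo with DMSO against cells frozen after sorting. Changes in culture are those of this comparison, where DMSO and markers of other cells differ as well. Many members differed: there were 125 rises and 70 falls, while 134 members did not pass the test. Of all genes, 67.0% were called, 32.0% higher and 35.0% lower. With libraries scaled to the summed RPKM, 193 members rose and 34 fell, beside 6280 and 2894 of all genes. The median log2 change was 0.17 over members and -0.03 over all genes. The libraries did not overlap for 123 members that were higher and 68 that were lower, beside 67.6% of all genes.

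Zfp365 had the largest rise on the log2 scale. Its human counterpart binds the protein DISC1 and is known for a role at the centrosome and in genome stability, and no finger pattern was found in it. It had 13.5, 13.6, 11.6 and 11.6 RPKM with Tubastatin A and 8.16, 6.44 and 6.20 RPKM with vehicle. Fresh cells had 0.972, 0.416 and 0.588 RPKM. The order Tubastatin A, vehicle, fresh held with no overlap, and the log2 changes were 2.26 (SE 0.15, adjusted p = 1.1e-07) for vehicle against fresh and 0.78 (SE 0.14, adjusted p = 0.00055) for Tubastatin A against vehicle. Zfp239 had 4.22, 5.48 and 4.68 RPKM with vehicle, against 1.09, 0.551 and 0.524 RPKM in fresh cells. Zfp213, a KRAB and SCAN protein, had 12.4 ± 1.06 RPKM with vehicle and 3.70 ± 0.899 RPKM in fresh cells (SD). Zfp553, Zfp524, Zfp764, Zfp109, Zfp41 and Zfp955a rose by 1.62, 1.57, 1.47, 1.43, 1.42 and 1.42 on the log2 scale, where 45.7% of the words of Zfp524 and 66.0% of those of Zfp955a occur in other genes. Zfp524 also overlaps Gm44973 on the same strand and Fiz1 on the other.

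Of the 10 members named for the largest falls in culture, 6 had no KRAB box. Zfp954 and Zfp655, the 2 that fell most on the scale of log2(RPKM + 1), were KRAB genes. Zfp131, a BTB domain protein, had 18.6, 17.4 and 17.4 RPKM with vehicle, against 46.2, 45.0 and 58.1 RPKM in fresh cells. Zfp703, a corepressor without the finger pattern, had 2.96, 2.75 and 2.85 RPKM with vehicle, against 10.6, 9.97 and 16.0 RPKM in fresh cells. Zfp281, known from the pluripotency network of mouse embryonic stem cells, had 10.1, 9.46 and 8.86 RPKM with vehicle, against 29.9, 25.4 and 35.6 RPKM in fresh cells. In all of these, every vehicle library lay below every fresh library. With Tubastatin A, Zfp131 stood at 16.7 ± 1.40 RPKM and Zfp703 at 2.64 ± 0.566 RPKM, which did not pass the test against vehicle, whereas Zfp281 stood at 16.3 ± 0.680 RPKM, above vehicle by a log2 change of 0.72 (adjusted p = 0.00023). The KRAB genes Zfp954, Zfp655, Zfp948 and Zfp868 fell in culture by 2.60, 2.50, 1.68 and 1.57 on the log2 scale. Zfp948 had 29.4 RPKM in fresh replicate 1, against 58.8 and 59.5 RPKM in fresh replicates 2 and 3.

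Tubastatin A against fresh joins culture and inhibitor. It gave the largest excess of rises: there were 169 rises and 64 falls, while 96 members did not pass the test. Of all genes, 64.9% were called, 29.8% higher and 35.2% lower. Scaled to the summed RPKM, 240 members rose and 28 fell, beside 54.7% and 19.4% of all genes. Without Tubastatin A replicate 2, 161 members rose and 54 fell, with no count of all genes set beside these. The median log2 change was 0.33 over members and -0.03 over all genes. The libraries did not overlap for 153 members that were higher and 62 that were lower, beside 61.3% of all genes. This comparison shares its libraries with both others, so the 3 sets of values are not independent.

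The largest rise on the log2 scale was again that of Zfp365, with 3.05 (SE 0.14, adjusted p = 6.9e-09). Zfp52 followed among genes with little shared sequence, with 1.97 (SE 0.18, adjusted p = 1.4e-06). Zfp87 had 5.51, 5.47, 4.82 and 6.04 RPKM with Tubastatin A, against 0.462, 1.11 and 1.31 RPKM in fresh cells. Zfp105 had 10.3, 10.8, 10.4 and 13.3 RPKM, against 2.71, 2.37 and 3.17 RPKM. Zfp11 and Zfp53 rose by 1.66 and 1.57 on the log2 scale, and in all of these genes the groups stood apart. Zfp87 overlaps Gm26965 on the same strand. Zfp955a, Zfp955b and Zfp617 rose by 2.11, 1.65 and 1.95, but 66.0%, 40.0% and 47.7% of their words occur in other genes. The lowest were Zfp948, Zfp703, Zfp536, Zfp523, Zfp521 and Zfp651, which fell by 2.09, 1.84, 1.73, 1.71, 1.65 and 1.53. Zfp523 had 1.03 ± 0.0191 RPKM with Tubastatin A and 2.26 ± 0.214 RPKM with vehicle (SD), against 6.86, 5.33 and 4.84 RPKM in fresh cells.

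The direction of change differed in count between members with and without a KRAB box. With Tubastatin A against vehicle, 78 KRAB genes rose and 19 fell of 193, a share of 40.4% higher, with a median log2 change of 0.24. Among the 132 without a KRAB box, 32 rose and 27 fell, with a median of 0.03. For vehicle against fresh, 81 KRAB genes rose and 33 fell (median 0.21), and of the others 44 rose and 35 fell (median 0.02). For Tubastatin A against fresh, 125 KRAB genes (64.8%) rose and 20 fell (median 0.47), while 43 of the others rose and 43 fell (median 0.00). The medians of all genes in the 3 comparisons were 0.02, -0.03 and -0.03. In the same order, 29.6% of all genes rose and 29.7% fell, 32.0% and 35.0%, and 29.8% and 35.2%. Scaled to the summed RPKM, the KRAB genes had 99 rises and 18 falls, 125 and 13, and 162 and 9 in the 3 comparisons, and the others 43 and 23, 67 and 21, and 77 and 18. Under that scaling 34.9% of all genes rose and 26.4% fell for Tubastatin A against vehicle, 49.1% and 22.6% for vehicle against fresh, and 54.7% and 19.4% for Tubastatin A against fresh. No test of the KRAB genes as a set was made.

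KRAB genes rose more often than they fell also with genes of low level or shared sequence left out. Among the 127 KRAB genes with a mean of at least 1 RPKM, 57 rose and 10 fell with Tubastatin A against vehicle, and 83 rose and 14 fell against fresh. Of the 10364 genes of the whole table at that level, 3079 rose and 3369 fell against vehicle, and 3195 rose and 3753 fell against fresh. Among the 143 KRAB genes with at most 20% of their words in other genes, 62 rose and 13 fell against vehicle, and 94 rose and 16 fell against fresh. Of all genes, 29.6% rose and 29.7% fell against vehicle, and 29.8% and 35.2% against fresh. Without fresh replicate 1, 126 KRAB genes rose and 17 fell for Tubastatin A against fresh, and 98 rose and 28 fell for vehicle against fresh. Without Tubastatin A replicate 2, 69 KRAB genes rose and 18 fell against vehicle, and 123 rose and 16 fell against fresh. Leaving out a library also shifts the calls of all genes, whose counts were not set beside these.

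**Figure D3:**
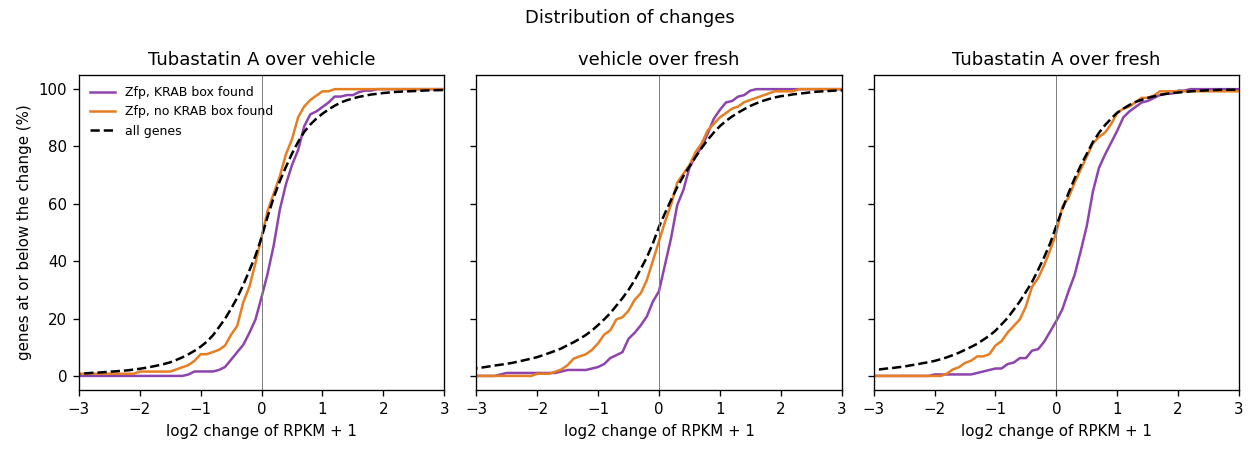
Cumulative share of genes (%, vertical axis) at or below each log2 change of RPKM + 1 (horizontal axis) for Zfp genes with a KRAB box (purple, 193 genes), Zfp genes without one (orange, 132 genes) and all 12803 genes (dashed), in 3 comparisons. The purple curve lies to the right of the dashed curve around 0 in each panel, with medians of 0.24, 0.21 and 0.47.

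The counts also differed by the number of fingers. With Tubastatin A against fresh, 63 of the 83 members with at least 14 fingers rose and 8 fell, while 5 of the 38 members with at most 3 fingers rose and 16 fell. Members with 9 to 13 fingers (72 rose, 21 fell, of 135) and with 4 to 8 fingers (28 rose, 18 fell, of 69) lay between these. Against vehicle, 34 rose and 6 fell in the group with the most fingers, and 5 rose and 8 fell in the group with the fewest. Of all genes, 29.8% rose and 35.2% fell against fresh, and 29.6% and 29.7% against vehicle. Within the KRAB genes, 53 of the 65 with at least 14 fingers rose against fresh and 3 fell, beside 15 and 7 of the 31 with at most 8 fingers. Without a KRAB box, 10 of 18 with at least 14 fingers rose and 5 fell, beside 18 and 27 of the 76 with at most 8.

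**Figure D4:**
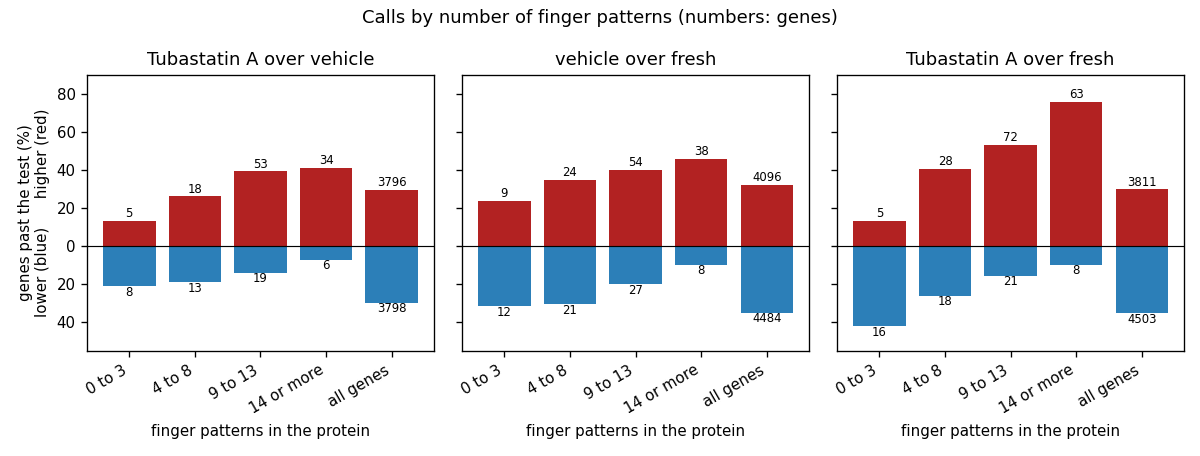
Share of Zfp genes (%) called higher (red, upward) or lower (blue, downward) at an adjusted p under 0.05, by the number of finger patterns in the protein, with all genes at the right of each panel. Numbers on the bars are genes. In Tubastatin A over fresh, 75.9% of members with at least 14 fingers were higher, against 13.2% of those with at most 3.

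Many KRAB genes stood next to one another on a chromosome. The 122 members in runs of at least 3 had 44 rises and 11 falls with Tubastatin A against vehicle, 55 and 18 with vehicle against fresh, and 77 and 14 with Tubastatin A against fresh. The 112 KRAB genes among them had 42 and 11, 51 and 16, and 72 and 11. KRAB genes with no Zfp neighbour (50) had 21 and 5, 18 and 12, and 30 and 7. Of all genes, 29.6% rose and 29.7% fell, 32.0% and 35.0%, and 29.8% and 35.2% in the same order of comparisons. The runs named next were picked from 25 runs with at least 3 members, after their values were seen. In a run of 8 members on chromosome 7, from Zfp607b to Zfp850, 6 rose and none fell with vehicle against fresh. With Tubastatin A against fresh, 7 rose and none fell. There Zfp60 had 2.51 RPKM with Tubastatin A, 1.52 RPKM with vehicle and 0.315 RPKM in fresh cells on average, and Zfp850 had 1.25, 1.15 and 0.316 RPKM. In a run of 10 members from Zfp180 to Zfp94 on the same chromosome, 8 rose and none fell against fresh, but against vehicle 3 rose and 4 fell. Zfp180 stood at 17.7 RPKM with Tubastatin A, 8.47 RPKM with vehicle and 7.77 RPKM in fresh cells, while Zfp109 stood at 1.32, 2.39 and 0.259 RPKM. On chromosome 8, in the run from Zfp868 to Zfp963, 3 of 4 members fell with vehicle against fresh. Zfp868 had 4.23 ± 0.142 RPKM with vehicle and 14.6 ± 1.03 RPKM in fresh cells, and Zfp869 fell by 1.18 on the log2 scale (SD, n = 3 each).

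**Figure D5:**
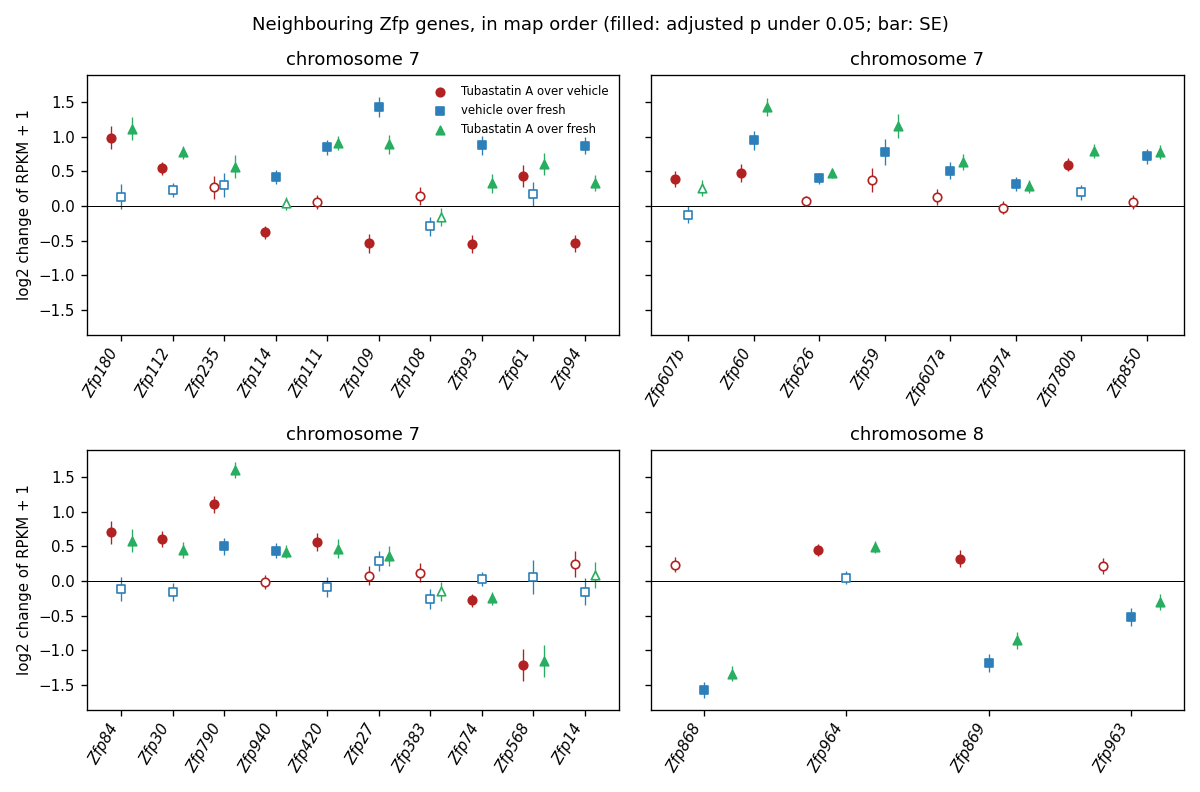
Log2 change of RPKM + 1 for the members of 4 runs of neighbouring Zfp genes, in map order, for Tubastatin A over vehicle (red circles), vehicle over fresh (blue squares) and Tubastatin A over fresh (green triangles). Bars are SE, and filled marks have an adjusted p under 0.05. In the run from Zfp607b to Zfp850, 7 of 8 green marks are filled and above 0, and in the run from Zfp868 to Zfp963, 3 of 4 blue marks are filled and below 0.

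The lists of roles and corepressors from here on were written with earlier results of these data known, so their counts only describe them. Among members known to silence retroelements or guard imprints in the mouse, 9 of the 14 listed were measured. In culture, 6 rose and none fell, beside 32.0% and 35.0% of all genes. With Tubastatin A against vehicle, 2 rose and 3 fell, beside 29.6% and 29.7% of all genes, and against fresh 4 rose and 1 fell, beside 29.8% and 35.2%. Zfp568, which silences a placental transcript of Igf2, had 2.31, 3.29, 3.70 and 2.36 RPKM with Tubastatin A, against 9.99, 6.96 and 7.28 RPKM with vehicle. Fresh cells had 11.6, 4.96 and 7.58 RPKM. The Tubastatin A libraries lay below all others, and the log2 change was -1.21 (SE 0.23, adjusted p = 0.00079) against vehicle. Zfp445, a guardian of imprinted regions, had 9.25 ± 1.08 RPKM with Tubastatin A and 5.88 ± 1.59 RPKM with vehicle (SD), and rose by 0.59 (adjusted p = 0.022), a call that was lost without Tubastatin A replicate 2 or 3 or vehicle replicate 2 or 3, with log2 changes of 0.57, 0.54, 0.61 and 0.42. Zfp57, its better known counterpart in embryonic cells, stood at 0.307 ± 0.0480 and 0.622 ± 0.128 RPKM and fell by 0.31. Zfp932, which represses endogenous retroviruses in mouse embryonic stem cells, fell by 0.64, with 48.3% of its words in other genes. Zfp809, which silences murine leukaemia proviruses, had 5.59 ± 0.858, 4.47 ± 0.248 and 4.19 ± 1.25 RPKM in Tubastatin A, vehicle and fresh cells and passed no test.

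Among the corepressors that KRAB proteins work with, more genes fell than rose with Tubastatin A. Of 26 measured genes of this list, 2 rose and 14 fell against vehicle, with a median log2 change of -0.44, beside 29.6% and 29.7% of all genes and a median of 0.02. For vehicle against fresh, 13 rose and 1 fell, beside 32.0% and 35.0% of all genes. Against fresh, 5 rose and 8 fell, beside 29.8% and 35.2% of all genes. Scaled to the summed RPKM, 17 rose and 1 fell against fresh, beside 54.7% and 19.4% of all genes. The direction against fresh thus turned with the scaling, as it did over all genes. Trim28, the protein that KRAB boxes bind, had 34.4, 30.9, 32.2 and 32.6 RPKM with Tubastatin A, against 75.1, 78.7 and 78.8 RPKM with vehicle. Fresh cells had 38.4, 29.8 and 37.0 RPKM. The vehicle libraries stood apart from the rest, and the log2 change was -1.23 (SE 0.11, adjusted p = 1.8e-06) for Tubastatin A against vehicle. The heterochromatin protein gene Cbx5 had 4.35 ± 0.415 RPKM with Tubastatin A, 19.6 ± 2.01 RPKM with vehicle and 5.23 ± 0.502 RPKM in fresh cells (SD). Uhrf1, which guides Dnmt1 to replicated DNA, had 1.74 ± 0.276, 95.5 ± 7.08 and 6.27 ± 1.05 RPKM, and Dnmt1, the maintenance methyltransferase, 5.63 ± 1.02, 45.9 ± 9.17 and 5.75 ± 1.52 RPKM. Setdb1, with 5.77 ± 0.253 RPKM under Tubastatin A and 7.64 ± 1.37 RPKM with vehicle, did not pass the test (log2 change -0.34, SE 0.21, adjusted p = 0.17). The 2 genes that rose were Atf7ip, the cofactor of Setdb1, by 0.69, and Morc2a, a partner of the HUSH silencing complex, by 0.65. The libraries of Morc2a overlapped, and its call was lost without Tubastatin A replicate 1, 2 or 3, vehicle replicate 2 or 3, or fresh replicate 3, with log2 changes of 0.55 to 0.65.

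General transcription and chromatin factors of the family, 21 genes, had 7 rises and 5 falls with Tubastatin A against vehicle, and 3 rises and 8 falls in culture, or 7 and 6 when scaled to the summed RPKM. Against fresh, 2 rose and 11 fell, but scaled to the summed RPKM 10 rose and 3 fell. Of all genes, 29.6% rose and 29.7% fell against vehicle, 32.0% and 35.0% in culture, and 29.8% and 35.2% against fresh, and under the scaling 49.1% and 22.6% in culture and 54.7% and 19.4% against fresh. Zfp64, which activates the leukaemia gene KMT2A in humans, had 16.8, 16.2, 14.7 and 16.5 RPKM with Tubastatin A, against 8.31, 7.58 and 7.98 RPKM with vehicle. Fresh cells had 6.57, 4.41 and 4.01 RPKM. Zfp143, a factor at many promoters and at small nuclear RNA genes, had 13.5 ± 0.839, 8.73 ± 0.597 and 5.79 ± 1.09 RPKM in the same order (SD). Both rose in each comparison. Zfp410, an activator of Chd4, had 7.14 ± 0.177 RPKM with Tubastatin A, 4.96 ± 0.442 RPKM with vehicle and 9.84 ± 0.506 RPKM in fresh cells. Zfp384, a factor of the nuclear matrix, fell with Tubastatin A by 0.67 on the log2 scale, to 7.11 ± 0.606 RPKM, against 11.9 ± 0.0540 RPKM with vehicle.

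Of 12 measured members listed under mesenchyme, muscle or fat, none rose and 8 fell in culture, beside 32.0% and 35.0% of all genes. This list, too, was written with earlier results of these data known. With Tubastatin A against vehicle, 4 rose and none fell, beside 29.6% and 29.7% of all genes. Against fresh, none rose and 7 fell, beside 29.8% and 35.2%. Zfp521, which restrains adipogenesis, had 1.68, 1.32 and 0.863 RPKM with vehicle, against 5.20, 5.36 and 7.86 RPKM in fresh cells. Zfp536, a repressor in nerve cell differentiation, had 0.295, 0.188 and 0.205 RPKM, against 5.14, 2.98 and 4.76 RPKM, and Zfp503, a corepressor related to Zfp703, had 1.67 ± 0.166 RPKM, against 6.72 ± 1.75 RPKM (SD). Zfp423, a factor of fat precursors, had 0.687 ± 0.169 RPKM with Tubastatin A, 0.273 ± 0.0888 RPKM with vehicle and 1.41 ± 0.103 RPKM in fresh cells. The summed fibro-adipogenic and endothelial markers were also lower in both cultures than in fresh cells. All 5 fibro-adipogenic markers were measured, and their sum ranged from 5.95 to 9.55 RPKM in Tubastatin A, from 33.2 to 43.1 RPKM in vehicle and from 250 to 639 RPKM in fresh libraries. Col3a1 made up most of this sum, with a mean of 6.50 RPKM with Tubastatin A, 38.0 RPKM with vehicle and 407 RPKM in fresh cells, and was the 1 marker of the 5 that fell with Tubastatin A against vehicle. In culture 4 of the 5 fell, among them Dcn, at 0.543 RPKM with Tubastatin A, 0.229 RPKM with vehicle and 25.1 RPKM in fresh cells. Pdgfra, the defining marker, was near 0 throughout, at 0.0585, 0.00675 and 0.117 RPKM in the same order. All 5 endothelial markers fell in culture as well, with sums of 3.98 to 5.25, 1.29 to 1.43 and 20.3 to 31.9 RPKM. Of the 4 tenocyte markers, 3 fell and 1, Scx, rose in culture. Of the 5 smooth muscle and pericyte markers, 4 fell and 1, Acta2, did not pass the test. Scx, a tenocyte factor, had 4.14 RPKM with Tubastatin A, 70.5 RPKM with vehicle and 10.0 RPKM in fresh cells on average, and rose in culture. Acta2, a smooth muscle actin, had 10.3 to 60.8 RPKM with Tubastatin A, 174 to 239 RPKM with vehicle and 183 to 233 RPKM in fresh cells. The fibro-adipogenic sum was 7.41 RPKM with Tubastatin A and 38.6 RPKM with vehicle on average. That difference was almost all Col3a1, and the other 4 markers did not pass the test against vehicle. The part of other cells in the changes of these members was not tested.

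Members tied to the cell cycle and genome, 12 genes, had 7 rises and 3 falls in culture, and 3 rises and 4 falls with Tubastatin A against vehicle. Of all genes, 32.0% rose and 35.0% fell in culture, and 29.6% rose and 29.7% fell with Tubastatin A against vehicle. Beside Zfp365 and Zfp367, Zfp668, a factor in human DNA repair, had 2.35, 2.70 and 2.57 RPKM with vehicle, against 0.630, 0.410 and 0.613 RPKM in fresh cells. Zfp207, a spindle and kinetochore protein and the second highest member in level, had 33.1 ± 1.23 RPKM with Tubastatin A, 38.4 ± 1.68 RPKM with vehicle and 55.7 ± 5.59 RPKM in fresh cells (SD), but its change in culture turned with the scaling to 0.07. Zfp451, a SUMO ligase, rose with Tubastatin A by 0.57 to 5.90 ± 0.114 RPKM, against 3.69 ± 0.637 RPKM with vehicle.

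Members with roles in RNA, ribosomes or splicing (11 of 12 measured) had 1 rise and no fall with Tubastatin A against vehicle. Of all genes, 29.6% rose and 29.7% fell there. The member that rose was Zfp830, a splicing and genome stability factor, with 30.5 ± 3.66 RPKM with Tubastatin A and 19.6 ± 1.76 RPKM with vehicle (log2 change 0.61, adjusted p = 0.0081). In culture 1 rose and 4 fell, beside 32.0% and 35.0% of all genes. Scaled to the summed RPKM, 4 rose and 2 fell in culture, beside 49.1% and 22.6%. Zfp593 and Zfp622, whose yeast counterparts act in ribosome assembly, had 2.06 ± 0.485 and 13.4 ± 0.591 RPKM with vehicle, against 6.35 ± 1.60 and 29.8 ± 6.57 RPKM in fresh cells (SD). Zfp598, a ubiquitin ligase of stalled ribosomes, had 13.1 ± 0.746, 13.2 ± 1.06 and 13.3 ± 1.86 RPKM in Tubastatin A, vehicle and fresh cells and passed no test. Of the 7 ubiquitin and signalling genes listed, none rose and 1 fell with Tubastatin A against vehicle, beside 29.6% and 29.7% of all genes. The member that fell was Zfp580, with 2.60 ± 0.337 RPKM with Tubastatin A, against 6.66 ± 1.16 RPKM with vehicle.

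Other zinc finger families were counted in the same way. Of all genes, 29.6% rose and 29.7% fell with Tubastatin A against vehicle, and 29.8% rose and 35.2% fell against fresh. With Tubastatin A against vehicle, 14 of 38 Zbtb genes rose and 11 fell, and 7 of 15 Zkscan and Zscan genes rose and none fell. Of 18 Zc3h genes, which bind RNA, 3 rose and 6 fell. Of 19 Zdhhc genes, whose proteins are palmitoyl transferases, 4 rose and 7 fell. Against fresh, these families had 15 and 10, 7 and 3, 3 and 5, and 11 and 4.

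Promoters were available from RefSeq (GRCm38.p6) for 271 of the 329 members, each from 250 bases before to 50 bases after a start. The GC box GGGCGG occurred on either strand in 49.8% of them, against 69.8% of the 9980 genes of the table with a promoter. The share was 39.8% with a KRAB box and 64.7% without one. CCAAT occurred in 50.9%, against 43.0% of all, and the letters TTCGCGC or TTGGCGC in 5.54%, against 8.31%. Among KRAB genes the share was 55.4% for CCAAT. The letters TGACGTCA or TGACGTAA occurred in 4.43% of members, against 4.57% of all. A gene is counted once per motif, matches of different motifs may overlap, and a match describes the sequence and does not show binding.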

How the data were processed

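RNA of sorted mouse muscle stem cells was sequenced from paired-end libraries (SMART-Seq v4 and NuGEN Ovation kits, per the labels' protocols). The authors deposited RPKM values per gene for 10 libraries. The mm10 build and the tools STAR, Trim Galore, edgeR and featureCounts (Subread) are named, without versions, per the submitters' processing notes. The use of strand in counting is not given in the sources used here.

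The values were fitted as log2(RPKM + 1) for all 12803 genes with limma 3.58.1 (R 4.3.3), with trend, as 1 model of 3 groups. Each p was adjusted by Benjamini-Hochberg over all genes and called under 0.05. Each library is 1 animal. Multiplied by the summed exon length in GENCODE M21, the RPKM of 11893 genes (92.9%) came out as whole reads within 0.05 of a read, and these recovered reads gave the depths and an alternative with limma's voom over 11770 genes, 316 of them members. Values of 0 reads carry a small floor in the table (2 values among members).

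C2H2 fingers were found as 2 cysteines 2 to 4 residues apart, 12 residues, and 2 histidines 3 to 5 residues apart. KRAB and SCAN boxes were scored with profiles of 30 residues made from 173 and 24 proteins, and a box may be missed. Sharing of sequence was the share of 31-base words of a gene's transcripts found in other genes, with over 20% taken as shared.

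Genes were named by rule: up to 10 highest and 10 lowest called members per comparison with a group mean of at least 1 RPKM and no overlap, the 10 highest in level, and members of the role lists. Those named for their place in a run were chosen after their values were seen. The members and lists were chosen with earlier results of these data known. Alternatives were other pseudocounts, scalings, filters, thresholds and tests, and leaving out each library. Self-tests were run on simulated data. Python 3.11.15, numpy 2.4.6, pandas 2.3.3 and matplotlib 3.10.9 were used.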

Additional observations from a re-analysis of the deposited data

Results flagged for a closer look

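In 9 of 82 genes and lists tested, 1 of the 4 Tubastatin A libraries lay far from the others by Dixon's gap test at its 95% critical value, and chance flags about 1 in 20. Zfp655 had 27.1 RPKM in replicate 3, against 31.9 to 32.5 RPKM in the others. In the same library Zfp612 had 6.70 RPKM, against 5.83 to 5.89 RPKM, and Zfp524 had 1.85 RPKM, against 1.22 to 1.31 RPKM. Zfp617 had 9.63 RPKM in replicate 2, against 10.3 to 10.4 RPKM. Morc2a had 8.31 RPKM in replicate 4, against 11.5 to 12.2 RPKM. The summed level of myofibre markers was 382 RPKM in replicate 2, against 5.00 to 6.01 RPKM, and that of smooth muscle and pericyte markers was 61.7 RPKM in the same library, against 11.3 to 11.7 RPKM. The sum of muscle stem cell markers was 923 RPKM in replicate 1, against 1009 to 1024 RPKM. Hba-a1, the 1 erythroid marker measured, was at 0.0993 RPKM in replicate 4, against an identical 0.0111 RPKM in the others. That value is the floor for 0 reads, so any reads in replicate 4 would have set this flag. Groups of 3 libraries were not tested.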

How the results depend on the processing

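The count of called members stayed within 1.5 times in each comparison under every alternative run, and the direction of each median held. Over all single-library omissions, Tubastatin A against vehicle gave 95 to 132 rises, 39 to 58 falls and medians of 0.149 to 0.173. Vehicle against fresh gave 107 to 146 rises, 60 to 76 falls and medians of 0.096 to 0.240. Tubastatin A against fresh gave 153 to 172 rises, 54 to 64 falls and medians of 0.270 to 0.360. Counts of all genes under these omissions were not set beside them.

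The median for Tubastatin A against vehicle was 0.275 with a pseudocount of 0.1, 0.062 with 5, 0.243 scaled to the summed RPKM and 0.283 by voom on recovered reads. For Tubastatin A against fresh the same settings gave 0.593, 0.117, 0.713 and 0.638. Scaled to the summed RPKM, vehicle against fresh had 193 rises, 34 falls and a median of 0.435, and Tubastatin A against fresh had 28 falls. This scaling also turned the sign of Zfp655 (0.013), Zfp219 (0.021), Zfp422 (0.455), Zfp830 (0.532), Zfp410 (0.232), Zfp598 (0.651), Zfp451 (0.463), Trim28 (0.604), Cbx5 (0.376) and Dnmt1 (0.593) for Tubastatin A against fresh. For vehicle against fresh it turned Zfp207 (0.068), Zfp384 (0.146) and Zfp598 (0.547). Fresh libraries have the largest summed RPKM, and the cause of that was not tested. For 70 named genes, 3795 of 3972 values kept direction and call, 109 lost the call, 55 gained it and 13 turned.

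With the replicate number as a block, 142, 192 and 213 members were called in the 3 comparisons. Same-numbered libraries correlated in their deviations between -0.19 and 0.376, and differently numbered libraries between -0.514 and 0.447. Between Tubastatin A and vehicle, the same-numbered values were 0.376, 0.036 and 0.3, and the others lay between -0.367 and 0.264. The numbers were not taken to pair animals in the main fit, but with so few pairs these values cannot decide it. Of the 329 members, 300 had at least 10 reads in every library, and lower counts limit the rest.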
